A study of Mus musculus with 16 samples.

Results

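Met, Axl, Mertk and Tyro3, which encode receptor tyrosine kinases, and Hgf, Gas6 and Pros1, which encode their ligands, were examined in mouse liver cancer tumours treated with a kinase inhibitor, a PD-1 antibody or both. The 7 genes were chosen by symbol. Of these, 6 were paired with a probe set in the annotation used here, among 17097 genes tested, and Axl was not analysed here. The 6 genes were covered by 11 probe sets, and for each gene the brightest on average was used unless another is named.

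Each of the 16 tumours came from Hepa1-6 cells, a mouse hepatoma line, injected with Matrigel under the flank skin of male C57BL/6 mice aged 5 weeks. Treatment began at a tumour volume of 200 to 300 mm3. The Combination group (n = 4) received cabozantinib and the PD-1 antibody. The Cabozantinib group (n = 5) received cabozantinib by mouth at 30 mg/kg daily, and the labels do not say whether it also received IgG. The AntiPD1 group (n = 3) received the hamster antibody J43 against PD-1 in 5 doses of 10 mg/kg, 3 days apart. The Placebo group (n = 4) received hamster IgG at the same dose and schedule. Tumours were collected on day 14 and hybridised to 1 array each. The model was 1 cell line, grown under the skin and not in the liver.

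MET is the receptor for hepatocyte growth factor, HGF, which is made mainly by stromal cells and drives growth, movement and survival of epithelial cells, including hepatocytes and liver tumour cells. TYRO3, AXL and MERTK form the TAM family. Their ligands GAS6 and protein S, the product of Pros1, bind phosphatidylserine on dying cells and bridge it to the receptor, and in macrophages this drives the uptake of dying cells and restrains inflammatory signalling. Cabozantinib inhibits MET and the TAM kinases as well as VEGF receptors, KIT and RET. These are effects on kinase activity, which an expression array does not measure.

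The values are log2 signals, and array medians ran from 4.92 to 5.13. Levels of different probe sets cannot be set against each other. Within a gene, Hgf and Tyro3 lay below the lowest array median in every tumour with each of their probe sets, so neither was shown to be above background and both are given as weak signals. The labelled tissue was borne out by hepatocyte and hepatoma genes, since 10 of 10 measured markers had a mean above the highest array median, Alb at 13.09 among them. In 3 tumours a score of 13 skeletal muscle genes (each gene's log2 signal minus its own mean, averaged) was 5.31 (Combination replicate 4), 4.12 (Cabozantinib replicate 4) and 4.51 (AntiPD1 replicate 2). The other 13 tumours lay between -2.06 and 2.05. The hybridisation controls averaged 10.49 ± 0.29 in Cabozantinib (SD, n = 5) and 9.86 ± 0.40 in Placebo (SD, n = 4), and their part in the results was not tested. The tumours were bulk tissue, so fewer cells of a type and less RNA per cell cannot be told apart.

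Mertk differed most between groups among the 6 genes, with higher means in the groups that received the antibody. In Combination tumours Mertk, the TAM receptor typical of macrophages, had signals of 8.93, 9.70, 9.16 and 8.50. In Cabozantinib tumours it had 5.96, 5.83, 8.94, 7.96 and 7.79. In AntiPD1 tumours the values were 8.88, 8.99 and 8.78, and in Placebo tumours 8.36, 6.83, 7.75 and 7.33. Each of the 7 tumours that received the antibody lay above each of the 4 Placebo tumours, whereas the Cabozantinib tumours spread on both sides of them, 2 below and 1 above. The share of all genes with such a separation was not counted.

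The effect of the antibody was averaged over both backgrounds, as the mean of Combination and AntiPD1 minus the mean of Cabozantinib and Placebo. Mertk rose by 1.54 ± 0.41 in this comparison (log2, SE), which is 2.91-fold, with limma adjusted p = 0.0231. It was 1 of 6 genes called, against 18% of all genes called in the same comparison, so the share among the 6 was close to the background. Without the 3 muscle-rich tumours the difference was 1.69 with adjusted p = 0.0509. It was 1.52 with adjusted p = 0.0656 without AntiPD1 replicate 2, and 1.44 with adjusted p = 0.0528 without Combination replicate 2. Over the alternatives tried the adjusted p ran from 0.00394 to 0.0656.

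In the pairwise comparisons the differences with the antibody lay between 1.31 and 1.77, and none passed the threshold of 0.05. In Combination against Placebo the means were 9.07 ± 0.50 and 7.57 ± 0.65 (SD, n = 4 each), a difference of 1.5 ± 0.57 (SE), adjusted p = 0.0991 by limma. In Combination against Cabozantinib, where the Cabozantinib mean was 7.29 ± 1.35 (SD, n = 5), the difference was 1.77 ± 0.54 (SE), limma adjusted p = 0.0923. Without Cabozantinib replicate 3, whose signal of 8.94 stood above the other 4 tumours of its group, that difference was 2.18 with adjusted p = 0.0178. In that fit 1955 of all genes were called in this comparison, against 1 with all 16 tumours. AntiPD1 averaged 8.88 ± 0.10 (SD, n = 3), and its difference from Placebo was 1.31 ± 0.62 (SE), limma adjusted p = 0.262.

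Cabozantinib alone gave no measurable difference in Mertk at this number of tumours. Cabozantinib minus Placebo was -0.28 ± 0.54 (SE, limma adjusted p = 0.879), with a 95% confidence interval from -1.43 to 0.88. The Cabozantinib group spanned 3.11 log2 units, against 1.53 in Placebo, 1.20 in Combination and 0.21 in AntiPD1. Averaged over the antibody, the effect of cabozantinib on Mertk was -0.04 ± 0.41 (SE, limma adjusted p = 0.976). The test of whether the antibody acted differently on Mertk with and without cabozantinib gave 0.46 ± 0.82 (SE, limma adjusted p = 1).

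**Figure D1:**
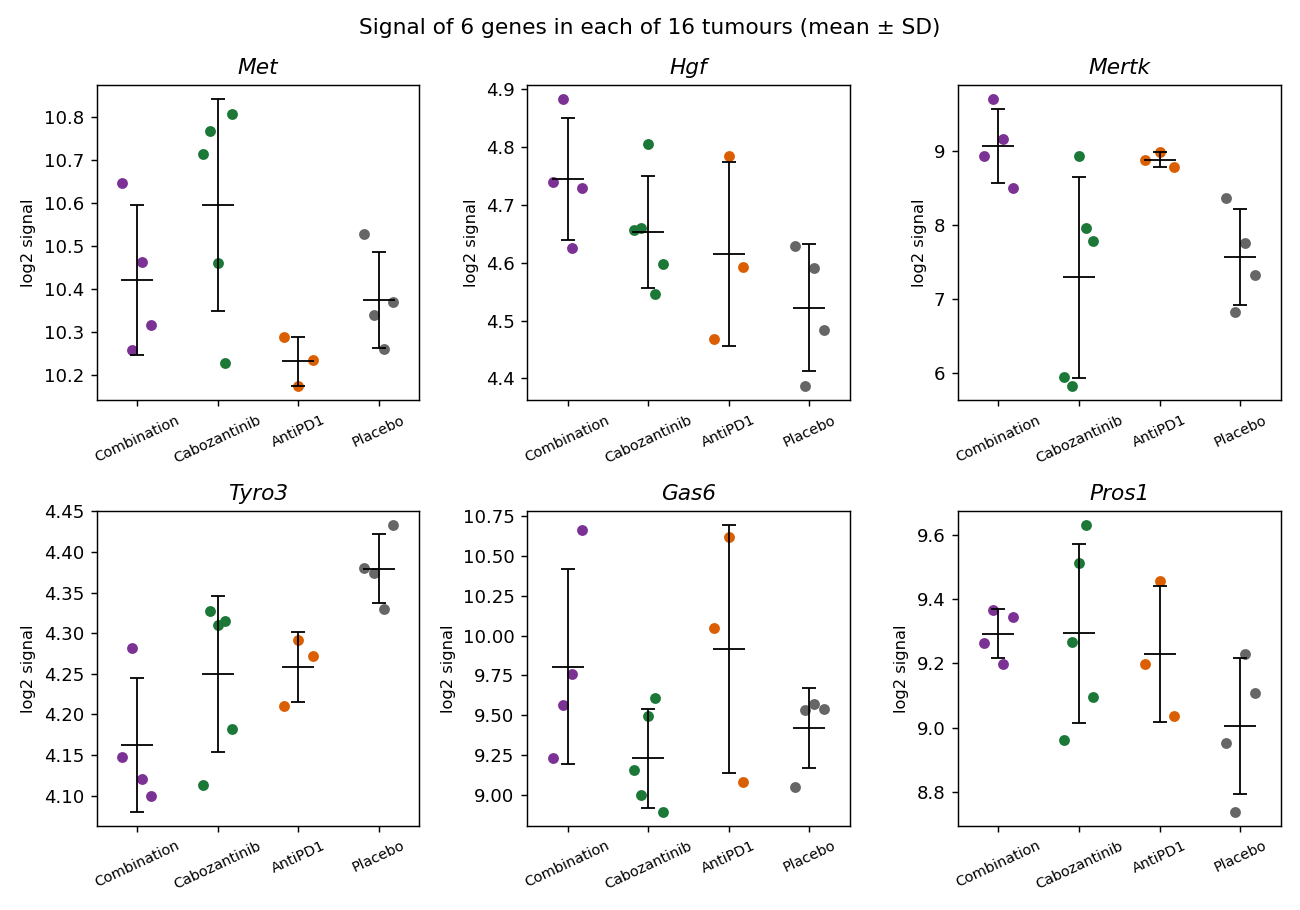
Log2 signal of the 6 genes in each of the 16 tumours, with 1 point per tumour and black bars for the group mean ± SD (n = 4, 5, 3 and 4 from left to right); each panel has its own axis, which does not start at 0. The Mertk panel shows both groups that received the antibody above Placebo and a Cabozantinib group that runs from 5.83 to 8.94, and the Tyro3 panel covers only 4.10 to 4.43.

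Met, the receptor for HGF, was strongly detected in each tumour and moved little. Its signals were 10.65, 10.26, 10.46 and 10.32 in Combination tumours and 10.71, 10.77, 10.46, 10.23 and 10.81 in Cabozantinib tumours. They were 10.29, 10.18 and 10.24 in AntiPD1 tumours and 10.53, 10.34, 10.26 and 10.37 in Placebo tumours. The group means were ordered Cabozantinib (10.59 ± 0.25, SD, n = 5), Combination (10.42 ± 0.17, SD, n = 4), Placebo (10.38 ± 0.11, SD, n = 4) and AntiPD1 (10.23 ± 0.06, SD, n = 3), and neighbours in this order overlapped. Of the Cabozantinib tumours, 3 lay above each Placebo tumour and 1 lay below each of them.

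The second Met probe set gave larger differences in the same directions. Its signals were 7.08, 6.61, 6.88 and 6.6 in Combination, 7.22, 7.64, 6.97, 6.58 and 7.39 in Cabozantinib, 6.24, 6.36 and 6.33 in AntiPD1, and 6.94, 6.35, 6.76 and 6.65 in Placebo. Over the 16 tumours both probe sets ranked the tumours alike, with a Pearson r of 0.916 and a Spearman rho of 0.847, given as a description since the probe sets share the transcript and the array. The Cabozantinib replicate 4 tumour, rich in muscle genes, was the lowest of its group with both probe sets.

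Neither Met probe set passed the threshold in a comparison with cabozantinib. Cabozantinib minus Placebo was 0.22 ± 0.115 (SE, limma adjusted p = 0.452) with the brighter probe set and 0.48 ± 0.18 (SE, limma adjusted p = 0.296 over all probe sets) with the second. The effect of cabozantinib averaged over the antibody was 0.20 ± 0.087 (SE, limma adjusted p = 0.261) and 0.48 ± 0.135 (SE, limma adjusted p = 0.0956 over all probe sets). Combination minus Placebo was 0.05 ± 0.12 (SE, limma adjusted p = 0.842), and AntiPD1 minus Placebo was -0.14 ± 0.13 (SE, limma adjusted p = 0.577). Combination minus Cabozantinib was -0.17 ± 0.115 (SE, limma adjusted p = 0.393), and Combination minus AntiPD1 was 0.19 ± 0.13 (SE, limma adjusted p = 0.858). The effect of the antibody averaged over cabozantinib was -0.16 ± 0.087 (SE, limma adjusted p = 0.222).

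**Figure D2:**
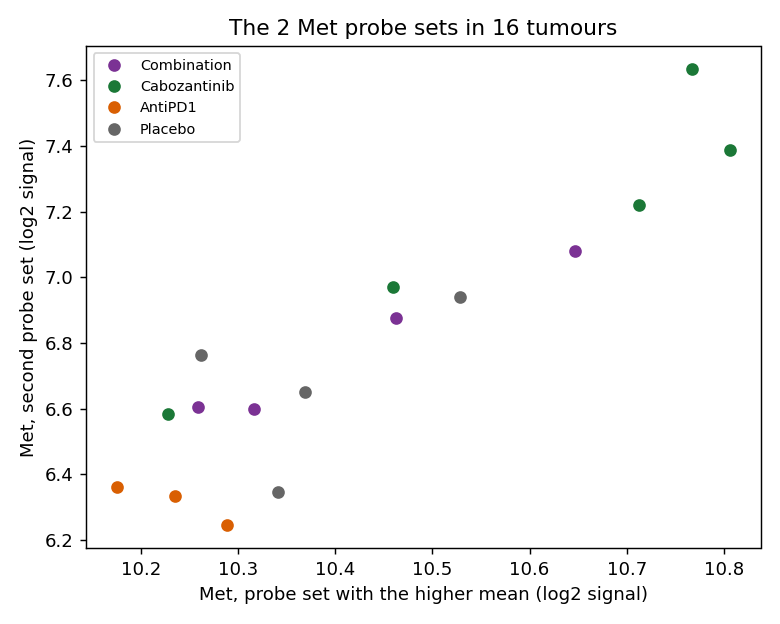
Log2 signal of the second Met probe set against the brighter one, 1 point per tumour, coloured by group. The points follow a rising line (r = 0.916 over 16 tumours), the 3 AntiPD1 tumours sit at its low end, and the 3 highest tumours with each probe set are Cabozantinib tumours.

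Hgf, the ligand of MET, stayed near background. The brightest of its 3 probe sets averaged 4.74 ± 0.11 in Combination (SD, n = 4), 4.65 ± 0.10 in Cabozantinib (SD, n = 5), 4.62 ± 0.16 in AntiPD1 (SD, n = 3) and 4.52 ± 0.11 in Placebo (SD, n = 4). Combination minus Placebo was 0.22 ± 0.085 (SE, limma adjusted p = 0.0997), and 3 of 4 Combination tumours lay above each Placebo tumour. Cabozantinib minus Placebo was 0.13 ± 0.080 (SE, adjusted p = 0.536 by limma), AntiPD1 minus Placebo 0.09 ± 0.091 (SE, adjusted p = 0.606 by limma), and cabozantinib averaged over the antibody 0.13 ± 0.061 (SE, adjusted p = 0.312 by limma). The 3 probe sets agreed loosely over the tumours, with pairwise r of 0.502, 0.342 and 0.522. With the most variable of them, the differences from Placebo had the opposite sign in Cabozantinib, at -0.0645, and in AntiPD1, at -0.124. For the antibody averaged over cabozantinib the brightest probe set gave 0.09 ± 0.061 (SE, adjusted p = 0.314 by limma). The most variable gave 0.06 ± 0.12 and the third 0.225 ± 0.0705 (SE), with limma adjusted p over all probe sets of 0.818 and 0.0501.

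Tyro3, the TAM receptor best known from the nervous system, was called lower in Combination, but on a signal under the array medians. Its values were 4.15, 4.28, 4.12 and 4.10 in Combination tumours, 4.11, 4.33, 4.31, 4.31 and 4.18 in Cabozantinib tumours, and 4.21, 4.29 and 4.27 in AntiPD1 tumours. In Placebo tumours they were 4.38, 4.37, 4.33 and 4.43. Each of the 12 treated tumours lay below each Placebo tumour, over a full range of 0.33 log2 units. How many of all genes separated the tumours in this way was not counted.

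Tyro3 fell by 0.22 ± 0.063 in Combination against Placebo (log2, SE), with limma adjusted p = 0.0441. It was 1 of the 6 genes called there, against 10.4% of all genes called. Background limits the size of a difference at this level. The second Tyro3 probe set, also under the array medians, differed by 0.0455 in the other direction, and r between both probe sets was -0.18. Leaving out any 1 of the 8 tumours compared ended the call, with adjusted p between 0.0619 and 0.115. So did leaving out any AntiPD1 tumour or Cabozantinib replicate 5. Cabozantinib minus Placebo was -0.13 ± 0.060 (SE, limma adjusted p = 0.378), AntiPD1 minus Placebo -0.12 ± 0.068 (SE, limma adjusted p = 0.336), and cabozantinib averaged over the antibody -0.11 ± 0.045 (SE, limma adjusted p = 0.228).

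Gas6, the ligand that activates each of the TAM receptors, was clearly detected and uneven within groups. Its signals were 9.23, 9.57, 9.76 and 10.66 in Combination tumours and 9.15, 9.0, 9.5, 9.61 and 8.89 in Cabozantinib tumours. They were 10.05, 10.62 and 9.08 in AntiPD1 tumours and 9.05, 9.53, 9.57 and 9.54 in Placebo tumours. The 2 highest values came from 2 of the 3 muscle-rich tumours, Combination replicate 4 and AntiPD1 replicate 2, and each treated group overlapped Placebo.

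No difference in Gas6 passed the threshold in the comparisons made. The antibody averaged over cabozantinib gave 0.535 ± 0.23 (SE, limma adjusted p = 0.117), and 0.26 (adjusted p = 0.348) without the 3 muscle-rich tumours. Without AntiPD1 replicate 3 it was 0.74 with adjusted p = 0.0306. Combination minus Cabozantinib was 0.575 ± 0.30 (SE, limma adjusted p = 0.277). The differences from Placebo were 0.38 ± 0.32 in Combination, -0.19 ± 0.30 in Cabozantinib and 0.495 ± 0.35 in AntiPD1 (SE), with limma adjusted p of 0.465, 0.846 and 0.447. The second Gas6 probe set, with signals between 4.72 and 6.08, had an r of 0.398 with the first over the tumours. Its differences had the opposite sign in Combination against Placebo (-0.18 ± 0.245, SE), in Combination against Cabozantinib (-0.20 ± 0.23, SE), in Cabozantinib against Placebo (0.03 ± 0.23, SE) and for the antibody averaged over cabozantinib (-0.08 ± 0.18, SE), with limma adjusted p over all probe sets of 0.724, 0.68, 0.978 and 0.823.

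Pros1, which encodes protein S, an anticoagulant made by hepatocytes and endothelial cells and a ligand of MERTK and TYRO3, was well detected and changed little. It averaged 9.29 ± 0.077 in Combination (SD, n = 4), 9.29 ± 0.28 in Cabozantinib (SD, n = 5), 9.23 ± 0.21 in AntiPD1 (SD, n = 3) and 9.01 ± 0.21 in Placebo (SD, n = 4). The signals were 9.26, 9.37, 9.20 and 9.34 in Combination, and ranged from 8.96 to 9.63 in Cabozantinib, from 9.04 to 9.46 in AntiPD1 and from 8.74 to 9.23 in Placebo. Placebo had the lowest mean, and its range overlapped that of each treated group. Combination minus Placebo was 0.29 ± 0.14 (SE, limma adjusted p = 0.204). Cabozantinib minus Placebo was 0.29 ± 0.14 (SE, limma adjusted p = 0.398), and AntiPD1 minus Placebo was 0.22 ± 0.16 (SE, limma adjusted p = 0.446).

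**Figure D3:**
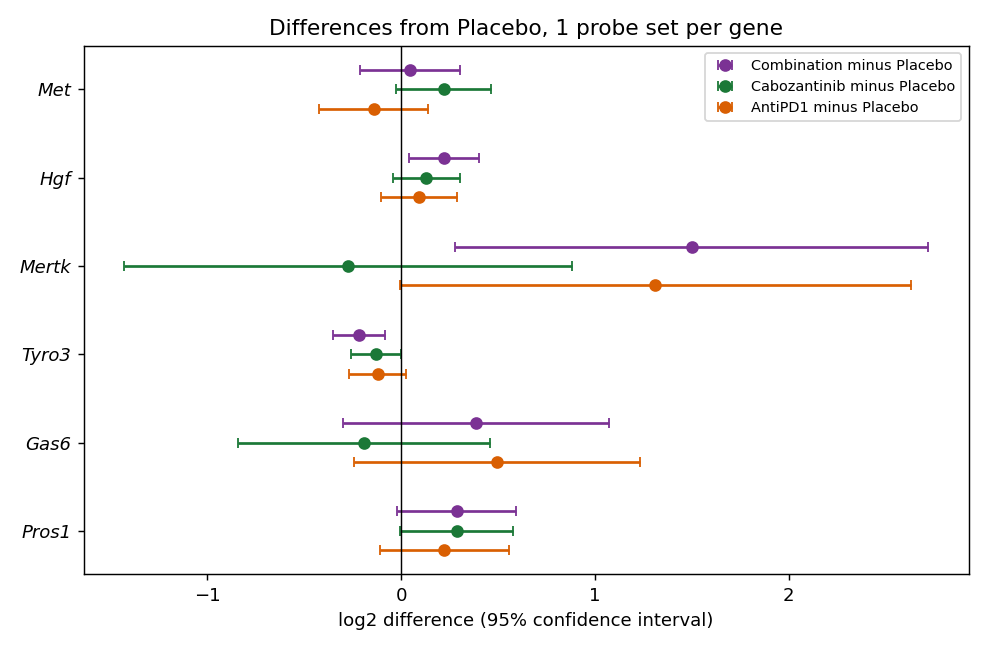
Log2 differences from Placebo for the 6 genes, with points for the estimate and bars for the 95% confidence interval of limma; Combination, Cabozantinib and AntiPD1 are shown from top to bottom within each gene, and the 3 comparisons share the Placebo tumours. The widest intervals are those of Mertk, whose Combination estimate is 1.5, and the Tyro3 interval for Combination lies below 0.

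Counted over the 6 genes, few comparisons held a call. In Combination against Placebo limma called 1 of 6 (Tyro3), with 3 at an unadjusted p under 0.05. There 10.4% of all genes were called and 4988 of the 17097 had an unadjusted p under 0.05. For the antibody averaged over cabozantinib limma called 1 of 6 (Mertk), with 3 at an unadjusted p under 0.05. In that comparison 18% of all genes were called and 5700 were at that unadjusted p. In Cabozantinib against Placebo limma called 0 of 6, with 1 at an unadjusted p under 0.05, while 0.257% of all genes were called and 2218 of the 17097 had an unadjusted p under 0.05. In AntiPD1 against Placebo 0 of 6 were called by limma, with 0 at an unadjusted p under 0.05, against 0.0292% of all genes called and 3278 at that unadjusted p. Combination against Cabozantinib gave 0 of 6 by limma, with 1 at an unadjusted p under 0.05, against 0.00585% of all genes called and 3853 at that unadjusted p. Combination against AntiPD1 gave 0 of 6 by limma, with 0 at an unadjusted p under 0.05, against 0.234% of all genes called and 1233 at that unadjusted p.

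For cabozantinib averaged over the antibody limma called 0 of 6, with 2 at an unadjusted p under 0.05, against 2.12% of all genes called and 2753 of the 17097 at that unadjusted p. The interaction of the drugs gave 0 of 6 by limma, with 0 at an unadjusted p under 0.05, against 0% of all genes, of which 440 had an unadjusted p under 0.05. The median difference of the 6 genes was 0.25 in Combination against Placebo, where the median of all genes was -0.02. It was 0.10 for the antibody averaged over cabozantinib, where that of all genes was -0.03. Comparisons with Placebo share the same 4 Placebo tumours.

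Over the 16 tumours the 6 genes did not rise and fall together. Of 15 pairs of genes, 0 had an adjusted permutation p under 0.05. The closest was Met with Gas6, with r = -0.645 (permutation p = 0.00744, adjusted 0.112) and rho = -0.665 (permutation p = 0.00631, adjusted 0.0946), and r was -0.519 without the 2 tumours farthest from the Met median. Both TAM ligands had r of 0.423 with each other, permutation p = 0.106 and adjusted p = 0.259. Mertk had r of 0.401 with Gas6 and 0.429 with Pros1, both with an adjusted permutation p of 0.259.

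Mertk moved with macrophage genes. The score of 15 macrophage genes, the mean log2 deviation of each gene from its own mean, had r = 0.95 and rho = 0.953 with Mertk, each with a permutation p of 1e-05, the smallest that the permutations can give, and an adjusted p of 0.00066 over 66 relations of 6 genes with 11 cell type scores. It was 0.952 without the 2 tumours farthest from the Mertk median and 0.898 over deviations from the group means, so it held within groups. The macrophage score was 0.72 ± 0.21 in Combination (SD, n = 4), -0.55 ± 0.89 in Cabozantinib (SD, n = 5), 0.61 ± 0.235 in AntiPD1 (SD, n = 3) and -0.49 ± 0.54 in Placebo (SD, n = 4). The Cabozantinib tumours lowest in Mertk, replicates 1 and 2, were also those with the lowest scores of their group, -0.88 and -1.90. Whether Mertk differed per macrophage was not tested.

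Macrophage genes rose with the antibody on the same arrays. For the antibody averaged over cabozantinib limma called 13 of 15 higher and 0 lower, with a median of 1.16, while 18% of all genes were called, 1424 of 17097 higher and 1651 lower. Genes with stronger signals were called more often. Of the 10141 genes with a mean above the highest array median, fitted alone, limma called 3523, and 14 of the 15 macrophage genes lay above it. Adgre1, a surface marker of mouse macrophages, rose by 1.75 ± 0.38 (SE, limma adjusted p = 0.014), Mrc1, the mannose receptor, by 1.49 ± 0.335 (adjusted p = 0.0146 by limma), Fcgr1, an Fc receptor for IgG, by 1.67 ± 0.38 (adjusted p = 0.015 by limma) and Cd68, a lysosomal glycoprotein, by 1.30 ± 0.30 (adjusted p = 0.0158 by limma). Ms4a7, a membrane protein of macrophages, was higher by 1.79 ± 0.44 and Itgam, the integrin subunit CD11b of myeloid cells, by 1.63 ± 0.41 (SE), with adjusted p of 0.0176 and 0.0195 by limma. Of the other cell type lists, fibroblast genes had 6 of 12 higher and 0 lower in this comparison, and endothelial genes 6 of 12 higher and 0 lower. Neutrophil genes had 3 of 9 higher and 0 lower, and hepatocyte and hepatoma genes 0 of 10 higher and 2 lower. Without the 3 muscle-rich tumours 8 macrophage genes were higher. Leaving out Placebo replicate 2, AntiPD1 replicate 1, AntiPD1 replicate 2 or Combination replicate 2 moved the macrophage count by over 1.5 times, and over single tumours left out it ran from 2 to 14. In the pairwise comparisons that add the antibody no macrophage gene was called. AntiPD1 against Placebo gave 0 of 15 called and 15 positive, with a median of 1.02, against 0.0292% of all genes called. Combination against Cabozantinib gave 0 of 15 called and 15 positive, with a median of 1.34, against 0.00585% of all genes called.

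Other cell type scores also went with Mertk. With fibroblast genes r was 0.889 and rho 0.853 (adjusted permutation p = 0.00066 and 0.00231), and with dendritic cell genes r was 0.787 and rho 0.782 (adjusted permutation p = 0.00379 and 0.0117). With hepatocyte and hepatoma genes r was -0.677 and rho -0.768 (adjusted permutation p = 0.0272 and 0.0117). With NK cell genes r was 0.801 (adjusted permutation p = 0.00379), but the rank measure did not pass, with rho = 0.626 (adjusted permutation p = 0.0665). Over deviations from group means r was 0.829 for fibroblast, 0.716 for dendritic cell, 0.809 for NK cell and -0.561 for hepatocyte and hepatoma genes.

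Met had negative relations, and the one with endothelial genes passed by both measures, with r = -0.699 and rho = -0.7 (adjusted permutation p = 0.0272 and 0.0351). Over deviations from the group means that r was -0.447. Cabozantinib had the highest mean Met and the lowest mean endothelial score, and AntiPD1 the reverse, so the relation also takes in differences between groups. With fibroblast genes r was -0.65 and rho -0.644 (adjusted permutation p = 0.0387 and 0.0566), and with pericyte genes r was -0.649 and rho -0.612 (adjusted permutation p = 0.0387 and 0.0701), so by rho neither passed. For these 2 lists r was -0.708 and -0.533 over deviations from the group means. Gas6 had r = 0.634 and rho = 0.697 with fibroblast genes (adjusted permutation p = 0.0431 and 0.0351), and r was 0.609 without the 2 tumours farthest from its median and 0.474 over deviations from the group means. With skeletal muscle genes Gas6 had r = 0.71 and rho = 0.521 (adjusted permutation p = 0.0272 and 0.158), so by rho it did not pass. That r was 0.287 without those tumours and 0.819 over deviations from the group means, which still include them. Leaving out tumours extreme in Gas6 narrows its range, so the lower r cannot show that the relation rested on them. For Gas6 with pericyte genes r was 0.689 and rho 0.606 (adjusted permutation p = 0.0272 and 0.0701). That r was 0.334 without those tumours and 0.75 over deviations from the group means.

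Pros1 had r = 0.656 and rho = 0.697 with fibroblast genes (adjusted permutation p = 0.0369 and 0.0351), and r was 0.758 over deviations from the group means and 0.614 without the 2 tumours farthest from its median. With skeletal muscle genes r was 0.683 and rho 0.665 (adjusted permutation p = 0.0272 and 0.0533), and r was then 0.612. Its r with neutrophil genes was 0.618 and rho 0.453 (adjusted permutation p = 0.0497 and 0.215), so by rho it did not pass. That r was 0.346 without those tumours and 0.463 over deviations from the group means. In all, 14 of the 66 relations had an adjusted permutation p under 0.05 by r and 7 by both r and rho, and Hgf and Tyro3 were in none of the 14. Differences between the 6 genes in these relations were not tested. The scores share the arrays and overlap in what they follow, and the part of any cell type in these results was not tested.

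**Figure D4:**
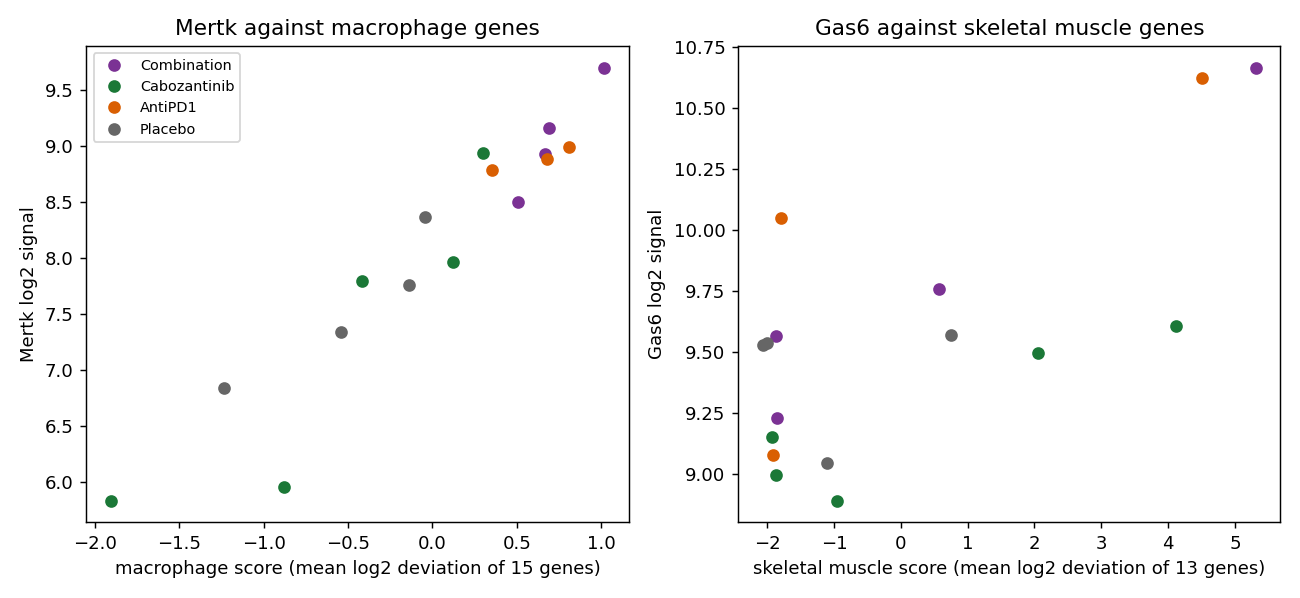
Left, Mertk log2 signal against the macrophage score; right, Gas6 log2 signal against the skeletal muscle score, with 1 point per tumour coloured by group and scores as mean log2 deviations. Mertk rises along the whole range of the macrophage score (r = 0.95), whereas the 3 tumours at the right of the muscle plot stand apart from the other 13.

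**Figure D5:**
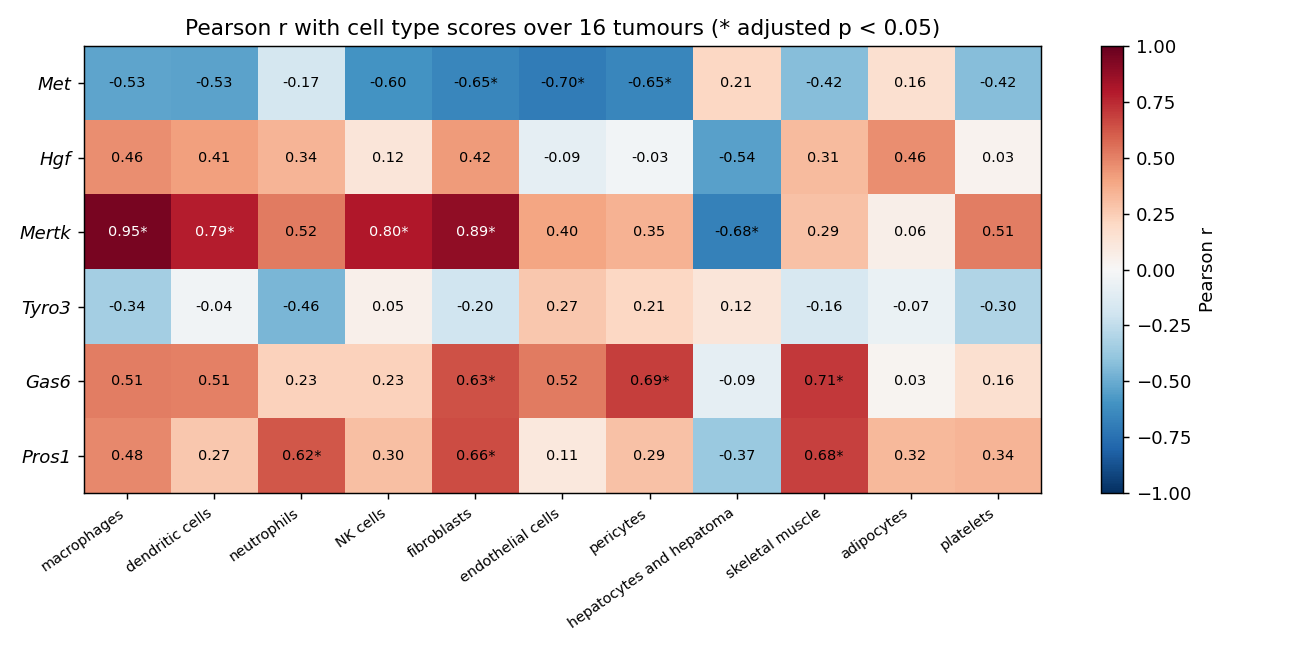
Pearson r over 16 tumours between the 6 genes (down) and 11 cell type scores (across), with colour from -1 to 1 and a star where the permutation p of r adjusted over 66 relations was under 0.05. The Mertk row holds the largest value, 0.95 with macrophages, and the Hgf and Tyro3 rows hold no star.

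The genes whose pattern over the 16 tumours was most like that of each of the 6 genes were taken by Pearson r among genes with a mean above the highest array median, as a description. For Mertk they were Trpv2 (r = 0.983), Myo1f (0.98) and Dock2 (0.98). For Met they were Pim3 (0.926), Lrrfip1 (0.913) and Slc25a24 (0.907). For Gas6 they were Fhl2 (0.905), Cpxm2 (0.896) and Mef2c (0.869), and for Pros1 Wdyhv1 (0.91), Fxyd1 (0.88) and Itgb1 (0.874). The nearest for Hgf was Ndrg3 (0.89) and for Tyro3 Ei24 (0.864), both read against a weak signal.

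The gene lists were chosen with earlier results of these data known, so their shares against all genes are given as a description. Genes that act with MET and HGF were called in both directions with the antibody. Of 25 such genes, limma called 4 higher and 10 lower for the antibody averaged over cabozantinib, which is 56%, against 18% of all genes called (1424 higher and 1651 lower). The list held mostly genes with stronger signals, since 20 of the 25 had a mean above the highest array median. Of the 10141 genes above it, fitted alone, limma called 3523 in this comparison. The share with a positive difference was 10 of 25, against 41.3% of all genes, and the median was -0.09, against -0.03 for all genes. Itgb4, an integrin subunit that pairs with MET, fell by 0.55 ± 0.10 (SE, limma adjusted p = 0.0108), and Itga6, the integrin subunit that pairs with that of Itgb4, by 0.30 ± 0.062 (SE, limma adjusted p = 0.0127). Lrig1, a membrane protein that restrains receptor tyrosine kinases, fell by 0.31 ± 0.068 (SE, limma adjusted p = 0.0143). Spint2, an inhibitor of the proteases that activate HGF, fell by 0.28 ± 0.058 (SE, limma adjusted p = 0.0128), and Hgfac, a protease that activates HGF, by 0.69 ± 0.16 (SE, limma adjusted p = 0.0154). Ptprj, a phosphatase that acts on MET, rose by 0.61 ± 0.14 (SE, limma adjusted p = 0.0153). Leaving out AntiPD1 replicate 2 moved this count by over 1.5 times, and over single tumours left out it ran from 0 to 7 higher and from 4 to 10 lower.

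In Combination against Placebo 3 of the 25 were lower and 0 higher, which is 12%, close to the 10.4% of all genes called there (635 higher and 1136 lower), and the median was -0.08. Hpn, which encodes hepsin, a hepatocyte protease that activates HGF, fell by 1.51 ± 0.29 (SE, limma adjusted p = 0.015), Shc1, an adaptor protein, by 0.38 ± 0.11 (adjusted p = 0.0398 by limma) and Spint2 by 0.27 ± 0.080 (adjusted p = 0.0454 by limma). Leaving out 1 tumour moved this count by over 1.5 times for 11 of the 16 tumours, within 0 to 2 higher and 0 to 4 lower, and it was 2 higher and 3 lower without the 3 muscle-rich tumours. Hepatocyte and hepatoma genes moved in the same comparison, with 3 of 10 lower, 0 higher and 1 positive. Foxa1, a transcription factor of hepatocytes, fell by 1.09 ± 0.22 (SE, limma adjusted p = 0.0158), Trf, which encodes transferrin, by 0.285 ± 0.08 (adjusted p = 0.0407 by limma) and Alb, which encodes albumin, by 0.22 ± 0.06 (adjusted p = 0.0361 by limma). Their score ran from -0.86 to 0.38 in Combination and from -0.19 to 0.53 in Placebo, and their part in the values of Hpn was not tested.

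Genes that act with the TAM receptors were measured for 15 of 19 listed. For the antibody averaged over cabozantinib limma called 5 higher and 1 lower, which is 40%, against 18% of all genes. However, 13 of the 15 had a mean above the highest array median. Of the 10141 genes above it, fitted alone, limma called 3523 in this comparison, a larger share than among all genes. The TAM partners were not counted in that fit, so they were not shown to exceed that background. Vav1, an exchange factor of blood cells, rose by 1.0 ± 0.24 (SE, limma adjusted p = 0.0163), Pik3r1, a regulatory subunit of PI3-kinase, by 0.31 ± 0.081 (adjusted p = 0.0217 by limma) and Grb2, an adaptor that is also in the list for MET, by 0.30 ± 0.08 (adjusted p = 0.0227 by limma). Lgals3, which encodes galectin-3, reported as a MERTK ligand, rose by 0.42 ± 0.11 (adjusted p = 0.0227 by limma), and Adam17, the protease that sheds MERTK from the cell surface, by 0.62 ± 0.18 (adjusted p = 0.029 by limma). Nck2, an adaptor, fell by 0.275 ± 0.077 (adjusted p = 0.0272 by limma). Without the 3 muscle-rich tumours 2 were higher and 1 lower, and leaving out AntiPD1 replicate 2 or Combination replicate 2 moved the count by over 1.5 times, with 0 to 6 higher and 0 to 1 lower over single tumours.

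Socs3, a suppressor of cytokine signalling that TAM receptors induce in dendritic cells, was the 1 of 15 TAM partners called for cabozantinib averaged over the antibody (6.67%, against 2.12% of all genes). It rose by 0.60 ± 0.11 (SE, limma adjusted p = 0.012). The count was 1 without the 3 muscle-rich tumours and between 1 and 2 over single tumours left out, with 2 without Placebo replicate 1. In Combination against Placebo Lgals3 was the 1 called (6.67%, against 10.4% of all genes), at 0.665 ± 0.15 (SE, limma adjusted p = 0.0239), and that count ran from 0 to 4 over single tumours left out, moving by over 1.5 times for 9 of 16, and was 3 without the muscle-rich tumours.

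Genes of the uptake of dying cells, the process in which MERTK acts, were measured for 28 of 29 listed. For the antibody averaged over cabozantinib 8 were higher and 1 lower by limma, which is 32.1%, against 18% of all genes. However, 23 of the 28 had a mean above the highest array median. Of the 10141 genes above it, fitted alone, limma called 3523 in this comparison, a larger share than among all genes. The uptake genes were not counted in that fit, so they were not shown to exceed that background. Stab1, a scavenger receptor, rose by 1.49 ± 0.24 (SE, limma adjusted p = 0.00995), Cd36, another scavenger receptor, by 1.66 ± 0.39 (adjusted p = 0.0158 by limma) and Dock2, an exchange factor for RAC in blood cells, by 1.19 ± 0.28 (adjusted p = 0.0158 by limma). Gulp1, an adaptor of engulfment receptors, rose by 1.09 ± 0.30 (adjusted p = 0.0261 by limma). C1qa and C1qb, subunits of complement C1q that also belong to the macrophage list, were higher by 0.96 ± 0.265 and 1.14 ± 0.31 (SE), with adjusted p of 0.0262 and 0.0257 by limma. Without the 3 muscle-rich tumours 5 were higher. Leaving out Placebo replicate 2, Placebo replicate 4, AntiPD1 replicate 1, AntiPD1 replicate 2 or Combination replicate 2 moved the count by over 1.5 times, within 1 to 11 higher.

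In Combination against Placebo 3 of the 28 uptake genes were called, each of them higher, which is 10.7%, a share close to the 10.4% of all genes. Cd36 rose by 2.02 ± 0.54 (SE, limma adjusted p = 0.0355), Stab1 by 1.21 ± 0.33 (adjusted p = 0.0383 by limma) and Cd300lf, a receptor for phosphatidylserine, by 1.42 ± 0.40 (adjusted p = 0.0395 by limma). The count stayed at 3 without the muscle-rich tumours and ran from 0 to 8 over single tumours left out, moving by over 1.5 times for 8 of 16. With cabozantinib averaged over the antibody, Itgav, an integrin subunit of receptors for MFGE8 on phagocytes, rose by 0.24 ± 0.047 (SE, limma adjusted p = 0.0175), as 1 of 28 called (3.57%, against 2.12% of all genes). This call was lost without the muscle-rich tumours and without AntiPD1 replicate 3, and without AntiPD1 replicate 1 the count was 1 higher and 1 lower. In Cabozantinib against Placebo Itgav was also the 1 of 28 called, which is 3.57%, against 0.257% of all genes. The difference was 0.33 ± 0.0625 (SE, limma adjusted p = 0.0418). That call was lost without the muscle-rich tumours and for 13 of the 16 tumours left out singly.

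Among the other kinases that cabozantinib inhibits, Kdr and Kit were lower with the drug averaged over the antibody, but neither was called with the drug alone. Of 11 measured, 2 were lower and 0 higher for cabozantinib averaged over the antibody, which is 18.2%, against 2.12% of all genes (147 higher and 215 lower), and 2 were lower with each tumour left out in turn and without the muscle-rich tumours. Kdr, the main VEGF receptor of endothelial cells, fell by 1.55 ± 0.225 (SE, limma adjusted p = 0.00273) and Kit, the receptor for stem cell factor, by 1.04 ± 0.15 (SE, limma adjusted p = 0.00285). Endothelial scores moved with them, at -0.21 ± 0.075 in Combination (SD, n = 4), -0.54 ± 0.21 in Cabozantinib (SD, n = 5), 0.97 ± 0.42 in AntiPD1 (SD, n = 3) and 0.16 ± 0.35 in Placebo (SD, n = 4), and Kdr belongs to that score. In this comparison 9 of 12 endothelial genes were lower and 0 higher. In Cabozantinib against Placebo 0 of the 11 kinases were called, against 0.257% of all genes, and 1 was lower without the muscle-rich tumours. Kdr was lower there by 1.09 ± 0.30 and Kit by 0.84 ± 0.20 (SE), with limma adjusted p of 0.136 and 0.0982. In Combination against AntiPD1, 2 of the 11 were called, both lower, which is 18.2%, against 0.234% of all genes. Kdr fell there by 2 ± 0.34 and Kit by 1.24 ± 0.23 (SE), with limma adjusted p of 0.0209 and 0.039. That count was 0 without the muscle-rich tumours. It moved by over 1.5 times for 11 of 16 tumours left out singly, within 0 to 2 lower. The mean signals of Kdr and Kit were low, at 5.70 and 5.64, with array medians up to 5.13. In Combination against Placebo Kdr fell by 1.13 ± 0.31 and Kit by 0.72 ± 0.21 (SE), with limma adjusted p of 0.0389 and 0.0458, and Tek, the angiopoietin receptor of endothelial cells, was higher by 0.80 ± 0.24 (SE, adjusted p = 0.0465 by limma). These 3 of 11 were called against 10.4% of all genes, and the count was 1 higher and 1 lower without the muscle-rich tumours. It moved by over 1.5 times for 9 of 16 tumours left out singly, within 0 to 1 higher and 0 to 2 lower. For the antibody averaged over cabozantinib Tek was the 1 called, against 18% of all genes, and rose by 0.96 ± 0.17 (SE, limma adjusted p = 0.0101), on a mean signal of 4.53, under the array medians. That count was 1 higher without the muscle-rich tumours, and ran from 1 to 2 higher and 0 to 1 lower over single tumours, moving by over 1.5 times without Placebo replicate 1, Cabozantinib replicate 3 or Cabozantinib replicate 4.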

How the data were processed

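Gene expression was measured by the authors on 1 array per tumour, with 50 ng of total RNA from each of 16 tumours, per the labels' protocols. The authors deposited 1 log2 value per probe set and array. The submitters' processing notes name RMA and the package affy (1.62.0). No further filter, batch correction or scan date is stated there. The deposited table contained 45141 probe sets, of which 104 were controls. Of the others, 28898 were paired with 1 gene, 551 with several and 15588 with none, and 28689 gene identifiers were found in the RefSeq table. Keeping the probe set with the highest mean left 17097 genes. Coordinates are left out because the files name no build. The highest correlation between arrays was 0.994. Arrays carry no read depth, and their number limits the precision. The labels do not say what the number in the sample titles stands for, and groups of separate tumours were treated as replicates, without pairing.

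Differences were tested by limma (3.58.1, under R 4.3.3) on the log2 values, with 4 group means in 1 fit, 12 residual degrees of freedom and Benjamini-Hochberg adjustment over all genes (threshold 0.05). Relations over tumours used Pearson r and Spearman rho with 100000 two-sided permutations. The fit was tested on simulated data drawn independently for each gene. Such data hold no feature shared by many genes of 1 tumour, such as muscle content, so the fit was not tested for that. The 7 genes and the gene lists were chosen with earlier results of these data known, so the shares of list genes called are descriptions. Named were the 7 genes with each of their probe sets, the 3 genes most like each of them, and the list genes past the threshold with the largest absolute moderated t, up to 6 per list and comparison described. Alternatives were another probe set rule, a filter on dim genes, other normalizations, array weights, other variance settings, the title number as a block, and leaving out arrays.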

Additional observations from a re-analysis of the deposited data

Results flagged for a closer look

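Gas6 was low in 1 Placebo tumour. Placebo replicate 1 had a signal of 9.05, while the other 3 Placebo tumours lay between 9.53 and 9.57, and the gap took up 0.921 of the range of the group, above Dixon's critical value of 0.829 for 4 tumours. Of 33 sets of values tested (11 probe sets in the 3 groups of 4 or 5 tumours), 1 was marked in this way, and chance marks about 1 in 20.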

How the results depend on the processing

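For Combination against Placebo the count of genes called, 1 in the result above, was 0 with the most variable probe set, with the mean of the probe sets, with each probe set tested on its own, with dim genes left out (which removes Tyro3) and without the 3 muscle-rich tumours, and 2 with array weights (Mertk and Tyro3). It lay between 0 and 1 with single tumours left out. With only those 2 groups fitted it was again 1, but the gene was Mertk (adjusted p = 0.0303) and not Tyro3 (adjusted p = 0.0597). For Combination against Cabozantinib the count was 1 with array weights (Mertk, adjusted p = 0.0367) and 0 to 1 with single tumours left out. For the antibody averaged over cabozantinib it was 2 with array weights (Gas6 and Mertk), 0 without the muscle-rich tumours, and 0 to 2 with single tumours left out. The other 5 comparisons stayed at 0 under each alternative run. Differences that were not called changed sign in several cases. With the most variable probe set these were Hgf in Cabozantinib (-0.0645) and AntiPD1 (-0.124) against Placebo, and Tyro3 in Cabozantinib against Placebo (0.0536), in Combination against Placebo, where it had been called (0.0455), and for cabozantinib averaged (0.124). With the mean of the probe sets Tyro3 was 0.00547 for cabozantinib averaged. Centring arrays on their medians gave Met -0.0129 in Combination against Placebo. With single tumours left out, Met ran from -0.0295 to 0.10 in that comparison, and Mertk from -0.69 to 0.0903 in Cabozantinib against Placebo and from -0.25 to 0.14 for cabozantinib averaged. Over deviations from group means r turned to -0.093 for Met with Hgf, 0.353 for Hgf with Tyro3, 0.347 for Mertk with Tyro3 and 0.541 for Tyro3 with Pros1. Except where stated, the cause of these changes was not tested. Of 620 alternative values for 30 single differences, 585 kept direction and side of the threshold. Most of the 30 were not called at first, so this share says little about the calls. Tyro3 in Combination against Placebo kept its call in 5 of 10 alternatives and with 0 of 8 tumours left out singly. Mertk for the antibody averaged over cabozantinib kept its call in 9 of 10 alternatives and with 14 of 16 tumours left out singly. No paired analysis was possible because the labels give no pairing; the title number as a random block (correlation -0.103) moved no count of genes called. The number of all genes called in Combination against Placebo, 1771, was 42 without Combination replicate 2. List counts without tumours were added after seeing the data. Signals under the array medians limit what Hgf and Tyro3 can show.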
